A study of Amphimedon queenslandica with 43 samples.

Results

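A rule on the rise with age in larvae picked 169 of the 47411 transcript models of the sponge Amphimedon queenslandica. It asked for medians higher by a set margin at 9 hours post emergence (hpe) than at 1 hpe in each of 3 light regimes. The 169 models were chosen by that rise and by conditions on level, detection and count. Levels were given as CPM, the count of a model per 1000000 counts of the larva, and the age change was the log2 ratio of the group medians at 9 and 1 hpe after 1 CPM was added to each. A member had an age change of at least 0.8 in every regime, a median of at least 20 CPM in its highest group, a count in all 22 larvae at 9 hpe, a mean raw count below 2500 over the 43 larvae, and an identifier starting with Aqu2.1. In all, 7185 Aqu2.1 models met the conditions on level, detection and mean count, and the 169 were those of them that also met the condition on the rise. All 169 were among the 14188 models left by the filter on low counts.

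The larvae were kept in constant light from a full spectrum tube, in constant dark, or under the natural day-night cycle, and were taken whole at 9 or 1 hpe. There were 7 larvae in each of the 6 groups of regime and age, except 8 in the day-night group at 9 hpe. Per the labels, the earlier age stood for larvae not yet able to settle and the later one for larvae able to do so, and settlement was not analysed here. All larvae came from 1 collection window of 30 minutes and were in filtered sea water under their regime by 0.5 hpe, so age, time of day and time under the regime cannot be told apart. Constant dark was made with a filter that let through 6.6% of ambient daylight, so those larvae still had dim light by day.

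Larvae of A. queenslandica develop in brood chambers inside the adult and are released as ciliated swimmers. A ring of pigmented cells with long cilia at the posterior end steers them away from light. In the hours after release they gain competence, the state in which cues from the sea floor can start settlement and metamorphosis into a juvenile. The genes counted in this species are models of its genome annotation, and the deposited files do not pair their identifiers with gene names. None of them was found in the table of reference genes, so no role is given for any model, no sequence is shown and the larval cell types could not be checked by markers. Each larva was sequenced whole by CEL-Seq2, a barcoded protocol that reads the 3′ end of transcripts, so more cells of a type and more RNA per cell cannot be told apart. Models with nearly the same 3′ end may share reads.

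Total counts were between 1890954 and 3927366 per larva. In a principal component analysis of all larvae, 8 stood apart at 1 end of the second component, beyond its largest gap. They were 4 constant-light larvae at 9 hpe, 1 constant-light larva at 1 hpe and 3 constant-dark larvae at 1 hpe. None was a day-night larva. At the other end, a smaller gap from 15.9 to 33.8 set off further larvae. At 1 hpe these were constant-light replicates 1, 2 and 3 and day-night replicates 4 and 6. At 9 hpe they were constant-dark replicate 7 and day-night replicates 1 and 5. No fit left these further larvae out together. No count in the deposited table exceeded 8192, and the highest count of a member in any larva was 4715. Members were mostly moderately abundant, with mean raw counts of 20.2 to 1295 and a median of 106, against a median of 51.7 over all models tested. A count was present in all 21 larvae at 1 hpe for 155 members, and the other 14 lacked one in up to 8 of those larvae.

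Together the members made up a small share of the transcripts, and that share was higher at 9 hpe in every regime. In constant light it was lowest 1.09%, median 1.24% and highest 1.38% of a larva's count at 9 hpe, against 0.480%, 0.515% and 0.573% at 1 hpe. In constant dark it was 1.18%, 1.27% and 1.35% at 9 hpe, against 0.457%, 0.530% and 0.569% at 1 hpe. In day-night larvae it was 1.58%, 1.85% and 1.98% at 9 hpe, against 0.396%, 0.492% and 0.546% at 1 hpe. The choice of members fixes the direction with age, so no test is given. It also bears on the regimes, since 15 members met the level condition only through the day-night median at 9 hpe. Through the constant-light and the constant-dark median at 9 hpe alone there were 6 each. Such members were likely to be higher there and are part of the shares. Differences in share between regimes are therefore descriptions and were not tested. The regimes stood close together at 1 hpe, while at 9 hpe the 8 day-night larvae all lay above the 14 larvae of the other regimes. The mean shares at 9 hpe were 1.23% ± 0.107 (SD, n = 7) under constant light and 1.27% ± 0.0503 (n = 7) under constant dark, against 1.83% ± 0.117 (n = 8) under day-night.

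**Figure D1:**
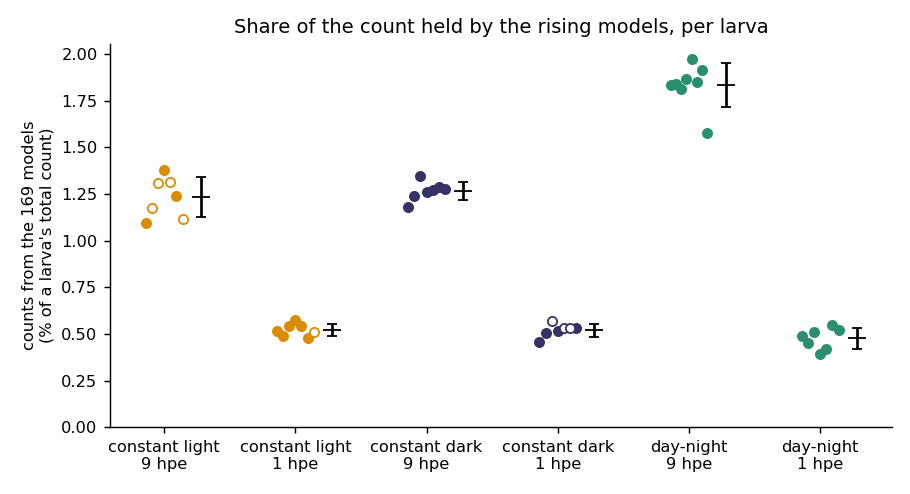
Share of a larva's total count that came from the 169 models, in percent, by group. Each point is 1 larva, open points are the 8 larvae set apart on the second principal component, and bars give the mean ± SD; at 9 hpe day-night larvae lie between 1.58% and 1.98%, above every larva of the other regimes.

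The day-night larvae had the higher share at 9 hpe also when the most abundant members were left out. The 15 members let in only through day-night at 9 hpe were kept in these shares. Without the 4 of highest level, the share at 9 hpe was 0.897% to 1.12% in constant light, 1.03% to 1.17% in constant dark and 1.31% to 1.61% in day-night. At 1 hpe it was then 0.425% to 0.502% in constant light, 0.392% to 0.488% in constant dark and 0.356% to 0.483% in day-night. In constant light at 9 hpe the 4 larvae that stood apart held 1.12% to 1.31%, within the range of 1.09% to 1.38% in the 3 others. In constant dark at 1 hpe the 3 such larvae held 0.530% to 0.569%, against 0.457% to 0.530% in the 4 others, so they were at the upper end of that group.

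The median age change was largest under the day-night cycle. It was 1.20 in constant light, 1.30 in constant dark and 1.54 in day-night larvae on the log2 scale, or 2.29-fold, 2.45-fold and 2.91-fold. The quartiles were 0.94 and 1.77 in constant light, 1.03 and 1.76 in constant dark, and 1.17 and 2.62 in day-night. The upper quartiles were thus further apart than the lower ones. An age change of at least 2 was found for 30 members in constant light, 24 in constant dark and 62 in day-night larvae. The highest value of any member was 4.70 in constant light, 3.73 in constant dark and 6.60 in day-night. Of the 169, 32 had their largest age change in constant light, 43 in constant dark and 94 in day-night larvae, whereas over all models tested those shares were 30.05%, 40.03% and 29.9%. The models tested did not have to rise in any regime, so those shares are no like comparison for the members. These values are descriptions, since the age change chose the members.

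**Figure D2:**
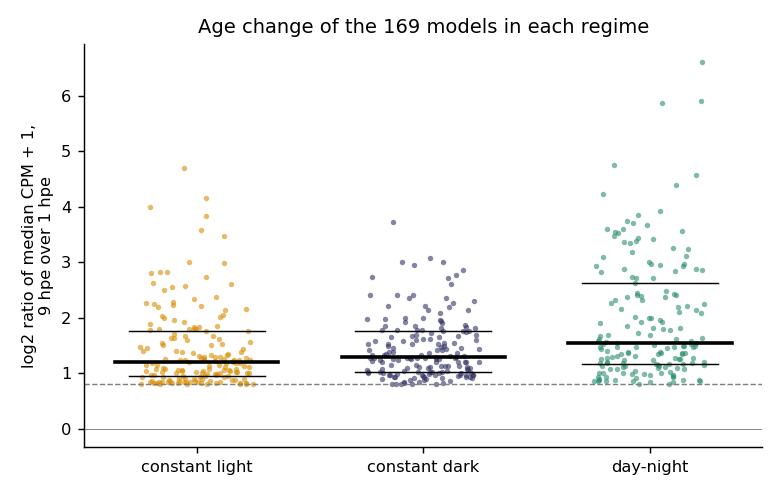
Age change of the 169 models in each regime, as the log2 ratio of median CPM + 1 at 9 hpe over 1 hpe. Each point is 1 model, the thick line the median, the thin lines the quartiles and the dashed line the threshold of 0.8; the medians are 1.20, 1.30 and 1.54, and the upper quartile is highest in day-night larvae.

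Part of the age change on this scale belonged to all models. The median age change over all models tested was 0.10 in constant light, 0.24 in constant dark and 0.18 in day-night on CPM, and 0.00, 0.01 and 0.01 after scaling by edgeR's trimmed mean of M values (TMM). With TMM sizes the members' median age change was 1.10 in constant light, 1.07 in constant dark and 1.39 in day-night, so that day-night stayed highest while constant light and constant dark changed places, and 89 models met the whole rule. Many members lay near the threshold. The smallest of the 3 age changes was below 1 for 82 members and at least 2 for 10. Just inside were Aqu2.1.43909_001 and Aqu2.1.34922_001, both with a smallest age change of 0.80. Just outside were Aqu2.1.12234_001 and Aqu2.1.40946_001, also at 0.80 to 2 decimals. A smallest age change from 0.8 to below 0.9 was found for 54 members, and one from 0.7 to below 0.8 for 67 models outside the list.

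Median ratios do not require that larvae of the 2 ages be separate. Every larva at 9 hpe lay above every larva at 1 hpe for 46 of the 169 members in constant light, where 1.59% of all models tested did so. This held for 65 members in constant dark, with a background of 5.72%, and for 86 in day-night larvae, with a background of 4.04%. Since the rule used the same comparison, nothing further is read from these counts.

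The members with the largest smallest age change were Aqu2.1.39244_001, Aqu2.1.41050_001, Aqu2.1.40806_001, Aqu2.1.40975_001, Aqu2.1.26146_001 and Aqu2.1.34611_001. Of these, Aqu2.1.39244_001, Aqu2.1.41050_001 and Aqu2.1.40806_001 were scarce at 1 hpe. Most of the members just listed varied several-fold between larvae of a group at 9 hpe. Aqu2.1.39244_001 had a lowest, median and highest level of 7.14, 19.7 and 46.6 CPM in constant light at 9 hpe, against 0, 0.301 and 2.84 CPM at 1 hpe. In constant dark it had 8.60, 36.6 and 114 CPM at 9 hpe, against 2.34, 4.18 and 8.54 CPM at 1 hpe. In day-night larvae it had 22.2, 43.2 and 208 CPM at 9 hpe, against 0.322, 1.10 and 9.29 CPM at 1 hpe. The 2 ages did not overlap in any regime. Under constant light and day-night the 1 hpe medians of Aqu2.1.39244_001 were near the floor of detection, so the size of its age change there depended on the added 1 CPM.

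Aqu2.1.41050_001 was scarce at 1 hpe, with medians of 0.638 CPM under constant light and 0.295 CPM under constant dark, against 0.953 CPM in day-night. At 9 hpe it had 1.05, 10.5 and 43.3 CPM under constant light and 1.15, 16.2 and 40.03 CPM under constant dark, against 22.2, 28.6 and 85.7 CPM in day-night larvae. The ages overlapped for it in constant light only. For Aqu2.1.40806_001 the levels at 9 hpe were 9.77, 23.5 and 58.7 CPM under constant light and 23.3, 33.3 and 71.2 CPM under constant dark, against 17.05, 63.2 and 100.5 CPM in day-night, all above the highest 1 hpe larva at 7.37 CPM. Aqu2.1.40975_001 overlapped between ages in every regime, with 12.7 to 275 CPM in constant light at 9 hpe against 0.716 to 24.9 CPM at 1 hpe. It had 7.52 to 266 CPM in constant dark at 9 hpe against 1.52 to 43.3 CPM at 1 hpe, and 13.7 to 188 CPM in day-night at 9 hpe against 2.22 to 45.2 CPM at 1 hpe. Its medians were still far apart, at 126.5, 161 and 100.5 CPM at 9 hpe in constant light, constant dark and day-night, against 6.13, 29.6 and 9.61 CPM at 1 hpe.

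Aqu2.1.34611_001 combined a large age change with a high level, and the ages did not overlap in any regime. It had 378, 484 and 778 CPM in constant light at 9 hpe, against 35.5, 59.8 and 89.5 CPM at 1 hpe. It had 510, 699 and 852 CPM in constant dark at 9 hpe, against 94.0, 135 and 207 CPM at 1 hpe. In day-night larvae it had 618, 835 and 1144 CPM at 9 hpe, against 48.4, 81.3 and 124 CPM at 1 hpe. The other members of high level were Aqu2.1.41530_001, Aqu2.1.22787_001 and Aqu2.1.35935_001. Aqu2.1.35935_001 had medians near each other in all regimes, at 508, 495 and 539 CPM at 9 hpe in constant light, constant dark and day-night, against 176.5, 208 and 205 CPM at 1 hpe.

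The rule asked for a rise in each regime and set no direct condition on the difference between regimes at 1 age. That difference was tested, with limits. The age change was built from the same group medians, so the required rise in each regime bounds how far the regimes can differ. The 7185 models set beside the members did not have to rise. The condition of at least 20 CPM in the highest group let in 15 members through the day-night median at 9 hpe alone and 6 through the constant-light median at 9 hpe alone, and such members were likely to be higher there. At 9 hpe, 37 of the 169 members were lower and 1 was higher in constant light than in day-night larvae at an adjusted p below 0.05 in edgeR's quasi-likelihood test. The 37 are 21.9% of the members. Of all models tested, 1.97% were lower and 2.88% higher, and of the 7185 models that met the conditions on level, detection and mean count 2.74% were lower. The members' median log2 fold change in constant light against day-night was −0.33, against −0.02 over all models tested, and 118 of the 169 values were below 0. Of the 37, 31 were lower by at least 2-fold, and the median of the 37 was −1.39. Without the 8 larvae that stood apart, 24 members were called in place of 38. Of the 15 members past the level condition only through day-night at 9 hpe, 6 were among the 37. The other 154, a split made after the data were seen, had 31 lower, or 20.1%, against 2.42% of the models that met the same conditions without regard to the rise.

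Constant dark gave a similar split against day-night at 9 hpe, with 34 members lower, or 20.1%, and 0 higher. Of all models tested 1.40% were lower and 0.310% higher, and of the models that met the conditions on level, detection and mean count 2.27% were lower. At an unadjusted p below 0.05 edgeR had 3 members higher and 56 lower, 34.9% in all against 10.6% of all models tested, and at an adjusted p below 0.05 DESeq2 had 0 higher and limma voom 1. The median log2 fold change of the members was −0.25, against 0.00 over all models tested, with 112 values below 0. Of the 34, 32 were lower by at least 2-fold, and the median of the 34 was −1.86. Of the 154 members that did not depend on the day-night median for their level, 30 were lower, or 19.5%, against 2.03% of the models that met the same conditions without regard to the rise. Both comparisons use the same 8 day-night larvae, so their calls are not independent of each other. Constant light and constant dark differed for few members: 4 were higher and 1 was lower in constant light, where 0.684% of all models tested were higher and 0.134% lower, and the median log2 fold change was −0.06.

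**Figure D3:**
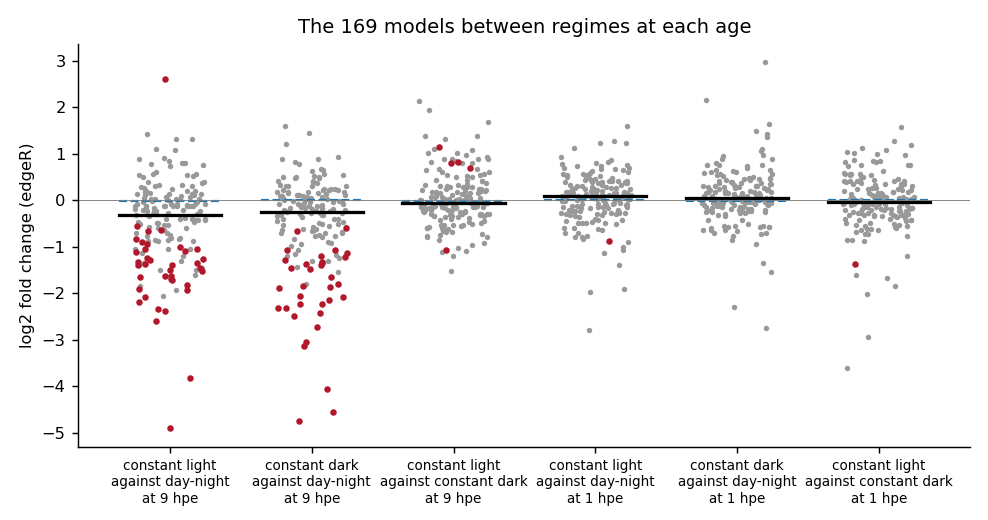
Log2 fold changes of the 169 models between regimes at each age, from edgeR. Each point is 1 model, red where the adjusted p is below 0.05, the black line is the members' median and the blue dashed line the median over all models tested; the medians of constant light and constant dark against day-night at 9 hpe lie at −0.33 and −0.25, and red points are few elsewhere.

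The members called lower than in day-night larvae at 9 hpe had larger age changes under the day-night cycle. The 37 lower in constant light had a median age change of 1.27 in constant light, 1.32 in constant dark and 2.96 in day-night larvae, against 1.19, 1.28 and 1.36 for the other 132. The median of their levels at 9 hpe was 46.8 CPM under constant light, 44.5 CPM under constant dark and 157 CPM in day-night larvae. At 1 hpe it was 13.9 CPM under constant light, 16.6 CPM under constant dark and 13.5 CPM in day-night larvae. For the 34 lower in constant dark, the median level at 9 hpe was 63.3 CPM under constant light, 48.8 CPM under constant dark and 159 CPM in day-night larvae, and at 1 hpe the same medians were 17.04, 19.2 and 17.7 CPM. In these members the medians of the 3 regimes lay near each other at 1 hpe, and at 9 hpe day-night stood apart from both constant regimes. They were picked by the difference at 9 hpe, so these values describe them and test nothing.

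Aqu2.1.29913_001 was separate from day-night in both comparisons at 9 hpe. It had 59.0, 90.9 and 116 CPM under constant light and 64.4, 73.1 and 102 CPM under constant dark, against 272, 305.5 and 374 CPM in day-night larvae. At 1 hpe it had 29.8 to 60.1 CPM under constant light and 23.9 to 43.7 CPM under constant dark, against 20.9 to 48.6 CPM in day-night. The log2 fold change at 9 hpe was −1.82 ± 0.16 (SE) in constant light against day-night, with an edgeR quasi-likelihood adjusted p of 2.12e-10. In constant dark against day-night it was −2.06 ± 0.16, with an adjusted p of 2.07e-12. No larva of the other regimes reached the lowest day-night larva.

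Aqu2.1.44215_001 showed an order of all 3 regimes at 9 hpe. It had 47.7, 73.7 and 98.8 CPM under constant light and 40.03, 44.5 and 48.8 CPM under constant dark, against 135, 222 and 263 CPM in day-night larvae. At 1 hpe the medians were 20.6 CPM under constant light and 22.4 CPM under constant dark, against 17.5 CPM in day-night. Against day-night at 9 hpe, its log2 fold change was −1.52 ± 0.16 in constant light and −2.32 ± 0.16 in constant dark, with adjusted p-values of 1.77e-08 and 2.69e-13. In constant light against constant dark it was 0.80 ± 0.16, with an adjusted p of 0.00459, and the 2 groups overlapped only at the lowest constant-light larva.

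Aqu2.1.41530_001, the member with the highest median in day-night larvae at 9 hpe, had its medians in the same order, although constant light and constant dark overlapped. Its levels at 9 hpe were 461, 574 and 855 CPM under constant light and 206, 330 and 511 CPM under constant dark, against 950, 1247 and 1631 CPM in day-night. At 1 hpe they were 114 to 209 CPM under constant light and 144 to 258 CPM under constant dark, against 106 to 181 CPM in day-night. At 9 hpe the log2 fold change was −1.05 ± 0.17 in constant light and −1.88 ± 0.17 in constant dark against day-night, with adjusted p-values of 4.62e-05 and 1.69e-10. In constant light against constant dark it was 0.82 ± 0.17, with an adjusted p of 0.00644. Aqu2.1.42574_001 was at 35.8 to 83.7 CPM under constant light and 35.2 to 83.2 CPM under constant dark, against 152 to 333 CPM in day-night at 9 hpe, and had log2 fold changes of −2.08 ± 0.25 in constant light and −2.14 ± 0.26 in constant dark, with adjusted p-values of 5.70e-07 and 1.08e-07. The calls of these 4 models against day-night held in all 23 alternatives run for each comparison.

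**Figure D4:**
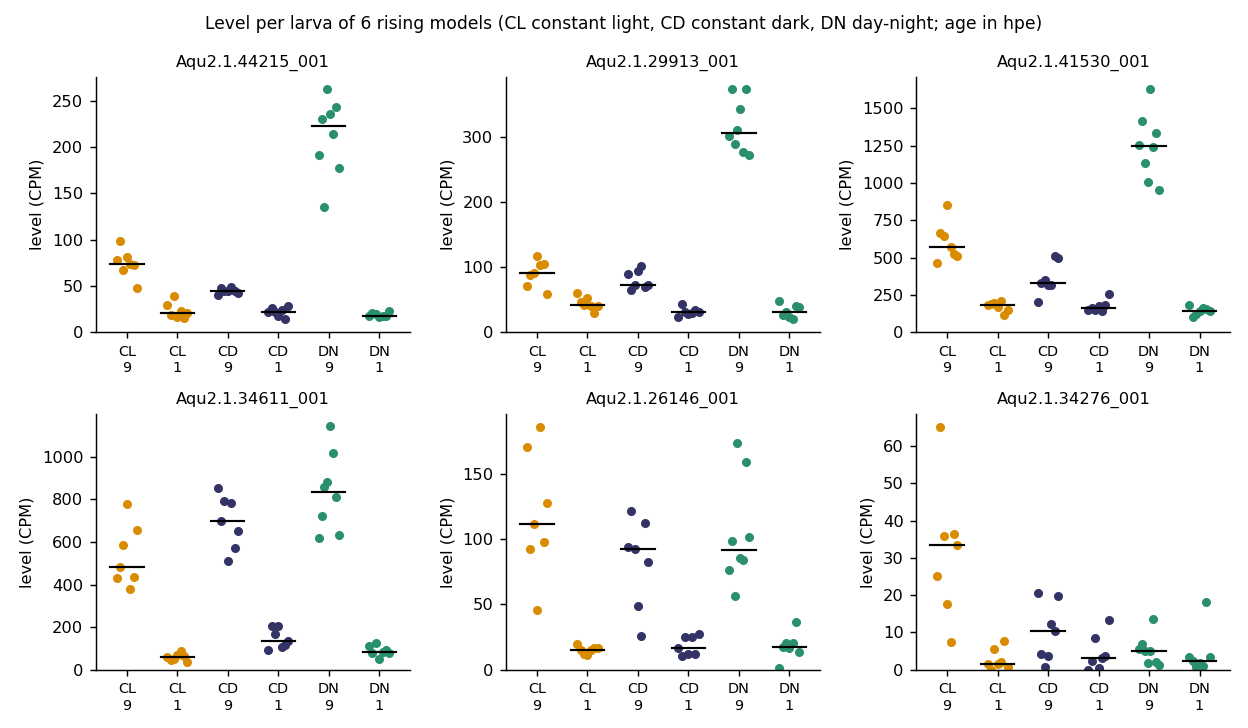
Levels of 6 rising models in CPM, per larva, by regime (CL constant light, CD constant dark, DN day-night) and age in hpe. Each point is 1 larva and each line the group median; Aqu2.1.44215_001, Aqu2.1.29913_001 and Aqu2.1.41530_001 are highest in day-night larvae at 9 hpe, Aqu2.1.34276_001 has its highest median in constant light at 9 hpe at 33.5 CPM, and Aqu2.1.26146_001 has medians of 91.8 to 111 CPM at 9 hpe in the 3 regimes.

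The largest day-night age changes belonged to Aqu2.1.31965_001, Aqu2.1.24503_001 and Aqu2.1.10425_001, which were picked after their values were seen. Their age changes were 6.60, 5.90 and 5.88 in day-night larvae. Aqu2.1.31965_001 had 1.32, 3.31 and 14.3 CPM under constant light and 0.424, 3.79 and 24.6 CPM under constant dark, against 11.6, 178 and 449 CPM in day-night larvae at 9 hpe. At 1 hpe its medians were all below 1 CPM. The groups overlapped at the lowest day-night larva. Aqu2.1.31965_001 and Aqu2.1.10425_001 met the level condition only through day-night at 9 hpe, so their differences between regimes are given as levels with no test. Aqu2.1.24503_001 was at 12.4, 39.8 and 91.0 CPM under constant light and 1.72, 4.78 and 29.3 CPM under constant dark, against 48.2, 146 and 277 CPM in day-night larvae at 9 hpe. It held the highest age change in constant light, 4.70, and one of only 0.92 in constant dark. Its difference at 9 hpe between constant light and constant dark, 2.14 ± 0.61 on the log2 scale, had an adjusted p of 0.0785 and did not pass.

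Other members of high level or large age change gave fewer calls. Aqu2.1.34611_001 had log2 fold changes at 9 hpe of −0.64 ± 0.20 in constant light and −0.35 ± 0.20 in constant dark against day-night, with adjusted p-values of 0.0576 and 0.587. Aqu2.1.22787_001 had 275, 458 and 593 CPM under constant light and 143, 225 and 295 CPM under constant dark, against 281, 620 and 850 CPM in day-night at 9 hpe. Its log2 fold change in constant dark against day-night was −1.45 ± 0.28, with an adjusted p of 0.000977, while constant light against day-night gave −0.43 ± 0.28 with an adjusted p of 0.451. Whether these 2 differences differ is the comparison of constant light with constant dark, which gave 1.02 ± 0.29 with an adjusted p of 0.0759. Aqu2.1.26146_001 was at 45.7 to 186 CPM under constant light and 25.5 to 122 CPM under constant dark, against 56.1 to 174 CPM in day-night at 9 hpe. Its log2 fold change was 0.20 ± 0.34 in constant light and −0.40 ± 0.34 in constant dark against day-night, with adjusted p-values of 0.829 and 0.774, which leaves room for differences of either sign.

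The 1 member higher in constant light than in day-night at 9 hpe was Aqu2.1.34276_001. It had 7.34, 33.5 and 65.2 CPM under constant light and 0.865, 10.5 and 20.7 CPM under constant dark, against 1.25, 4.98 and 13.5 CPM in day-night larvae. It met the level condition only through constant light at 9 hpe, the group where it was higher, so the call is no independent test. The call was also lost in 7 of 23 alternatives, among them the fits without the 8 larvae set apart, without constant-light replicate 2 and without day-night replicate 4, 7 or 8. At 1 hpe it had 0 to 7.82 CPM under constant light and 0 to 13.4 CPM under constant dark, against 0.641 to 18.1 CPM in day-night, so the ages overlapped in each regime.

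Between constant light and constant dark at 9 hpe, Aqu2.1.25915_001 differed most among the members called higher. It had 76.8 to 121 CPM under constant light and 40.6 to 52.5 CPM under constant dark, against 198 to 279.5 CPM in day-night, so the 3 regimes did not overlap. The log2 fold change in constant light against constant dark was 1.15 ± 0.23, with an adjusted p of 0.00459. The 1 member lower in constant light was Aqu2.1.44249_001, with 36.6, 91.1 and 138 CPM under constant light, against 141, 194 and 267.5 CPM in constant dark. Its log2 fold change was −1.07 ± 0.27, with an adjusted p of 0.0411, and the call was lost in 13 of 22 alternatives, 10 of which left out 1 larva (constant-dark replicates 2 to 7 and constant-light replicates 1, 2, 3 and 6). The fifth member called was Aqu2.1.29992_001, at 32.3 to 54.9 CPM in constant light against 21.97 to 35.6 CPM in constant dark. The 4 larvae set apart at 9 hpe were all in constant light. Without the 8 larvae set apart, 0 of these 5 calls were kept, and Aqu2.1.25915_001, Aqu2.1.44215_001, Aqu2.1.41530_001 and Aqu2.1.44249_001 had adjusted p-values of 0.0683 to 0.192. Their log2 fold changes were then 0.99, 0.81, 0.79 and −1.13, of about the size found with all larvae.

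At 1 hpe hardly any member was called between regimes, and calls were also rare over all models tested. In constant light against day-night, 0 members were higher and 1 was lower, where 0.141% of all models tested were higher and 0.733% lower. The unadjusted p was below 0.05 for 10 members higher and 8 lower, 10.7% of the members against 13.6% of all models tested. In constant dark against day-night 0 members were called by edgeR, DESeq2 or limma voom, where 0.0141% of all models tested were lower and 0 higher, and 21 members had an unadjusted p below 0.05, 12.4% against 8.23% of all models tested. In constant light against constant dark 0 were higher and 1 was lower, with a background of 0.0705% higher and 0.0775% lower. An unadjusted p below 0.05 was found for 13 members higher and 14 lower, 15.98% against 11.9% of all models tested. Members had a median standard error of 0.35 or slightly less on the log2 scale in the comparisons at 1 hpe, so small differences were not detectable. Large ones could also go uncalled. Aqu2.1.39244_001, near the floor of detection in constant light, had −2.95 ± 0.80 in constant light against constant dark, with an edgeR adjusted p of 0.154. Few calls therefore do not show that the regimes were alike.

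The member lower in constant light than in day-night at 1 hpe was Aqu2.1.33727_001, with 3.33, 10.3 and 13.4 CPM in constant light, against 9.98, 17.9 and 22.7 CPM in day-night larvae. The log2 fold change was −0.88 ± 0.22, with an adjusted p of 0.0332, and 13 of 22 alternatives lost the call, 9 of which left out 1 larva (constant-light replicate 1, 4, 5 or 7 or day-night replicate 1, 2, 4, 5 or 6). Aqu2.1.34611_001 was lower in constant light than in constant dark at 1 hpe, with a log2 fold change of −1.38 ± 0.21 and an adjusted p of 0.00176, and the highest constant-light larva, at 89.5 CPM, lay below the lowest constant-dark larva, at 94.0 CPM. With only those 2 groups fitted its adjusted p was 0.0704.

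Levels of the members were spread more widely between larvae of a group than those of the models that met the same conditions, a description with no test. Those models were not matched to the members by level, and the rule chose members that were lower at 1 hpe. The median within-group SD of log2 levels, averaged over the 6 groups, was 0.61 for the members, 0.38 for the 7185 models that met the conditions on level, detection and mean count, and 0.55 for all models tested. By group the members' median was 0.52 to 0.63, and in day-night larvae at 9 hpe it was below that of all models tested, at 0.52 against 0.54. The most variable were Aqu2.1.25037_001 and Aqu2.1.35258_001, with an SD of 2.13 and 2.03. Aqu2.1.25037_001 had 4.51, 92.0 and 112 CPM in constant light at 9 hpe, against 1.34, 29.8 and 159 CPM at 1 hpe. In constant dark it had 1.72, 22.9 and 91.2 CPM at 9 hpe, against 1.27, 12.6 and 122 CPM at 1 hpe. In day-night larvae it had 1.25, 81.4 and 128.5 CPM at 9 hpe, against 0.961, 6.74 and 97.5 CPM at 1 hpe. In each group its levels ran from a few CPM or less to near 100 CPM or more, so the group median says little about a single larva. Aqu2.1.35258_001 likewise ran from 0.842 to 148 CPM in constant dark at 9 hpe, against 2.19 to 97.9 CPM at 1 hpe.

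At the other end, Aqu2.1.43909_001 and Aqu2.1.36840_001 varied least, with an SD of 0.16 and 0.25. Aqu2.1.43909_001 had 99.4, 130 and 145 CPM in constant light at 9 hpe, against 63.1, 74.0 and 85.3 CPM at 1 hpe. It had 116, 125 and 141 CPM in constant dark at 9 hpe, against 56.9, 70.5 and 77.9 CPM at 1 hpe. In day-night it had 140, 183 and 244 CPM at 9 hpe, against 59.7, 61.0 and 70.8 CPM at 1 hpe. Its larvae of the 2 ages were separate in each regime although it only just met the threshold. At 9 hpe its log2 fold change against day-night was −0.55 ± 0.10 in constant light and −0.60 ± 0.10 in constant dark, with adjusted p-values of 0.000235 and 6.29e-05. Aqu2.1.36840_001 had medians of 64.4, 69.3 and 66.5 CPM at 9 hpe in constant light, constant dark and day-night, against 36.4, 36.4 and 27.5 CPM at 1 hpe.

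Most pairs of members showed little shared movement from larva to larva within a group. Over 14196 pairs, the correlation of their deviations from the group means across the 43 larvae had a median of 0.02, with 90% of pairs falling between −0.27 and 0.34, and the median was also 0.02 over pairs of the 7185 models. The points share a larva, its depth and its library, so these values are descriptions. The correlation was at least 0.5 in 98 pairs and at least 0.9 in 3. In the closest pair, Aqu2.1.11364_001 and Aqu2.1.27300_001, which was picked after its values were seen, the correlation was 0.99. The ratio of their levels stayed between 0.886 and 1.13 in every larva, and whether they share reads was not tested. Both were called lower than in day-night at 9 hpe in constant light and in constant dark. The counts of members called lower there may thus hold the same signal more than once. Aqu2.1.26146_001 and Aqu2.1.05601_001 had a correlation of 0.95 and may also be counted from shared reads, which the files do not settle.

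Only 8 members had a neighbour in number in the list, in 4 pairs. Consecutive numbers are taken here only as names, since positions were not analysed. Aqu2.1.26146_001 and Aqu2.1.26147_001 had a correlation of deviations of 0.71, over 43 larvae. Aqu2.1.26147_001 had medians of 25.6, 37.4 and 19.9 CPM at 9 hpe under constant light, constant dark and day-night, against 7.98, 11.5 and 6.76 CPM at 1 hpe. Aqu2.1.43425_001 and Aqu2.1.43426_001 had a correlation of 0.69. Aqu2.1.43425_001 was lower in constant dark than in day-night at 9 hpe, with a log2 fold change of −1.06 ± 0.24 and an adjusted p of 0.00799. For Aqu2.1.43426_001 that difference was −0.76 ± 0.37, with an adjusted p of 0.449.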

How the data were processed

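Levels were measured in 43 larvae, each sequenced by itself with CEL-Seq2 after TRIzol isolation, per the labels. The authors deposited raw counts per transcript model and larva for 47411 models, without spike-in and bacterial features, per the file name. The authors also deposited a table of signal values, normalized by size factors, for 28061 models, each equal to the raw count over 1 factor per larva, and these were used as an alternative scale only. The aligner, counter, genome build and annotation were not given in the sources used here.

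Groups came from the sample titles. The replicates are separate larvae, the labels give no parent or batch, so a p-value reflects how much these larvae varied. CPM are counts scaled to the larva's total. Models were tested with edgeR 4.0.16 in R 4.3.3: filterByExpr by group at a minimum count of 10, TMM, robust dispersions, 1 quasi-likelihood model with 6 group means, and Benjamini-Hochberg adjustment over all 14188 models at 0.05. DESeq2 1.42.0 and limma 3.58.1 (voom), other scalings and left-out larvae were alternatives. No p is given for the age change, which chose the members.

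The members, the lists and the naming rule were chosen with earlier results of these data known. The rule named the members with the largest smallest age change (6) and the highest level (4), the strongest calls per comparison, the most and least variable, those just past the threshold and pairs of consecutive numbers, 24 in all. Aqu2.1.11364_001, Aqu2.1.27300_001, Aqu2.1.05601_001, Aqu2.1.31965_001, Aqu2.1.24503_001, Aqu2.1.10425_001 and Aqu2.1.29992_001 were added after their values were seen.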

Additional observations from a re-analysis of the deposited data

Results flagged for a closer look

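In 150 sets of 7 or 8 larvae (levels of named members and the members' share, per group), 16 had 1 larva far from the others by Dixon's ratio at the 95% level. Chance gives about 1 in 20 for independent sets of normally distributed values. These sets share larvae and hold levels that were not log-transformed, so that rate is only a rough guide and no excess is read from the 16. Their causes were not tested, and replicate numbers are those of the labels.

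At 9 hpe, Aqu2.1.40806_001 was at 58.7 CPM in constant-light replicate 5, against 9.77 to 25.4 CPM in the others. Aqu2.1.34922_001 was at 104 CPM in constant-dark replicate 6, against 7.04 to 36.1 CPM in the others. The members' share was 1.58% in day-night replicate 8, against 1.81% to 1.98% in the others. Aqu2.1.34276_001 was at 13.5 CPM in day-night replicate 6, against 1.25 to 6.88 CPM.

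At 1 hpe in constant light, Aqu2.1.33727_001 was at 3.33 CPM in replicate 5, against 10.02 to 13.4 CPM in the others, and Aqu2.1.41050_001 at 1.79 CPM in replicate 1, against 0.323 to 0.902 CPM. In replicate 4, Aqu2.1.35935_001 was at 345 CPM, against 126 to 201 CPM, and Aqu2.1.39244_001 at 2.84 CPM, against 0 to 0.336 CPM. In replicate 3, Aqu2.1.40975_001 was at 24.9 CPM, against 0.716 to 7.72 CPM, and Aqu2.1.42574_001 at 46.3 CPM, against 15.3 to 25.9 CPM.

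At 1 hpe in constant dark, replicate 7 held 122 CPM of Aqu2.1.25037_001, against 1.27 to 24.2 CPM, and 258 CPM of Aqu2.1.41530_001, against 144 to 182 CPM. At 1 hpe in day-night, Aqu2.1.34276_001 was at 18.1 CPM in replicate 6, against 0.641 to 3.54 CPM, and Aqu2.1.40975_001 at 45.2 CPM in replicate 2, against 2.22 to 13.1 CPM. In replicate 3, Aqu2.1.39244_001 was at 9.29 CPM, against 0.322 to 2.22 CPM, and Aqu2.1.43909_001 at 70.8 CPM, against 59.7 to 62.1 CPM.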

How the results depend on the processing

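The number of models that met the rule fell to 89 on TMM sizes, 86 on the authors' normalized values and 87 with an age change of at least 1, and was 154 to 178 with 1 larva left out. The median age change was 0.98 in constant light, 1.15 in constant dark and 1.35 in day-night with 5 CPM added, and 1.07 in constant dark and 1.39 in day-night on TMM sizes. Members called in constant light against day-night at 9 hpe numbered 38, 32 to 41 with 1 larva left out, and 24 without the 8 larvae set apart. In constant dark against day-night at 9 hpe there were 34, and 30 to 36 with 1 larva left out. In constant light against constant dark at 9 hpe there were 5, and 10 with DESeq2, 3 with no filter, 3 with only those groups, 1 without the larvae set apart, and 3 to 6 with 1 larva left out (3 without constant-dark replicate 2, 6 or 7 or constant-light replicate 1, 3 or 6). At 1 hpe the 1 call in constant light against day-night became 2 with DESeq2, 0 with limma voom, no filter, only those groups or without the larvae set apart, and 0 to 1 with 1 larva left out (0 without constant-light replicate 1, 4, 5 or 7 or day-night replicate 1, 2, 4 or 5). The 1 call in constant light against constant dark became 4 with DESeq2, 0 with only those groups, and 1 to 2 with 1 larva left out (2 without constant-light replicate 4). In constant dark against day-night at 1 hpe 0 were called in each of these. With members past the level condition in a group other than day-night at 9 hpe, a choice made after the data were seen, 32 were called in constant light and 30 in constant dark against day-night at 9 hpe. The causes were not tested. Fewer larvae are compared where some are left out.

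Replicate numbers did not pair the larvae: larvae of the same number had correlations of deviations between −0.165 and 0.0806. With the replicate number as a block, the calls numbered 34, 34 and 4 at 9 hpe in constant light against day-night, constant dark against day-night and constant light against constant dark, and 1, 0 and 1 at 1 hpe.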
